A study of Homo sapiens with 8 samples.

Results

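The respiratory chain genes of a genome-wide CRISPR screen are described here, from complex I to complex V. They were taken from the guide table by symbol, as every gene beginning with NDUF, SDH, UQCR, COX4 to COX8 or ATP5. This gave 99 of the 19114 genes in the table, with 38 in complex I, 4 in complex II, 9 in complex III, 19 in complex IV, 17 in complex V and 12 assembly factors. NDUFA4 and NDUFA4L2 were placed with complex IV, since NDUFA4 is now known as a subunit of that complex. The rule used no measured value. It leaves out subunits with other names, such as CYC1, and the subunits encoded in mitochondrial DNA, which nuclear guides do not cut.

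The screen asked which genes AsPC-1 cells need to make Serpin B5, the protein of SERPINB5, which the study used as a readout of the transcription factor KLF5. AsPC-1 is an established human line of pancreatic ductal adenocarcinoma (PDAC), here expressing Cas9 and infected with the Brunello guide library. On day 8 after infection the cells were fixed with methanol, and they were then stained for Serpin B5 and sorted by its signal into low, bulk and high bins, bulk being the middle. All bins came from the same kind of infected Cas9 cells and differed only in the Serpin B5 signal of the sorted cells, and each was sequenced as 1 library. A guide that is richer in the low bin therefore marks cells with little Serpin B5, and a guide that is richer in the high bin marks cells with much of it.

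The respiratory chain lies in the inner mitochondrial membrane. Complex I oxidises NADH and complex II oxidises succinate, and both pass electrons to coenzyme Q. Complex III moves them on to cytochrome c and complex IV to oxygen, and the protons pumped on the way drive ATP synthesis by complex V. Complex II, or succinate dehydrogenase, differs from the others in that it pumps no protons, has no subunit encoded in mitochondrial DNA and is also an enzyme of the tricarboxylic acid cycle.

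Each guide count was divided by a size factor of its library, and the log2 ratio between bins was averaged over the guides of a gene to give its score. Low over high is positive where guides were richer in the low bin, which is the opposite sign of the study's own beta score. A gene is called here when its score is at least 0.5 in size and at least 3 guides, all with the sign of the score, were kept. With 1 library a bin there was no test, the SD given with a score is over guides, and nothing says how far a score would move in a repeated sort. The 3 libraries held 102155005 counts in low, 96310376 in bulk and 90421905 in high, or 1168 to 1319 counts per guide on average. As a check of the labels, SERPINB5 scored 7.08 ± 1.29 (SD, 4 guides) and KLF5 4.70 ± 1.19 (SD, 4 guides), which were the highest and next highest scores of low over high. All 99 respiratory chain genes were scored, 98 on 4 guides and ATP5B on 3, because a guide of ATP5B had 12 counts in low, 15 in bulk and 0 in high and was left out.

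The guide sequences are not in the tables used here. To show how far any guide could be told apart from gene copies, every 20-base site followed by NGG was listed in the coding sequences and searched for perfect matches in hg38. These are candidate sites in the reference, not the guides of the library. They were read from spliced coding sequence. A site across an exon junction is thus not in the gene itself, but counts as matched elsewhere if a copy without introns holds it. Shares for genes with such copies are therefore upper values. SDHA, SDHB and UQCRH are shown because the results for complexes II and III turn on them, with the bases that Cas9 requires next to its target (the PAM) in capitals:
SDHA: cgggggtccggggcctgtcgCGG
SDHB: cggtggtcgccctctccttgAGG
UQCRH: caaaagatgcttaccgaatcCGG
The SDHA site is the first in its coding sequence that has a copy outside the gene, and lies at chr5:218360-218382 (plus strand), chr3:195658101-195658123 (plus strand, in the pseudogene SDHAP2) and chr3:195990232-195990254 (minus strand, in the pseudogene SDHAP1). The SDHB site is the first with no copy, at chr1:17053990-17054012 (minus strand). The UQCRH site occurs at chr1:46303785-46303807 (plus strand) and again in UQCRHL at chr1:15807609-15807631 (minus strand), so that a guide with this sequence would cut both genes. Over the 99 genes the median share of sites with a match outside the gene was 4.76%, 38 genes had none, and 20 genes had more than 50% of their sites matched elsewhere.

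Most respiratory chain genes lay near 0. The median score of low over high was 0.007 over the 99 genes and 0.001 over all 19113 genes scored, and 51 of the 99 were above 0. Of the 99, 95 lay inside the range of -0.43 to 0.58 that holds the central 95% of all genes. NDUFA13 of complex I was above it, and SDHA, SDHB and SDHD of complex II were below it. By complex, the median was 0.06 for complex I, -0.52 for complex II, 0.23 for complex III, 0.00 for complex IV, -0.05 for complex V and -0.01 for the assembly factors. Complex II was thus the complex with the median furthest from 0, on the side of much Serpin B5.

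NDUFA13 was the gene called richer in low over high, 1 of 99 members, where 2.7% of all genes were called. SDHA was the gene called richer in high, 1 of 99 members against 1.72% of all genes. Neither share stood above that of all genes. Low over bulk gave no member called in either direction, with 0.947% of all genes called richer in low and 0.0262% richer in bulk. In high over bulk, SDHA was called richer in high, against 1.36% of all genes, and 0 members were called richer in bulk, against 1.31%. The 3 comparisons share libraries, so a gene's scores in them are not separate measurements.

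**Figure D1:**
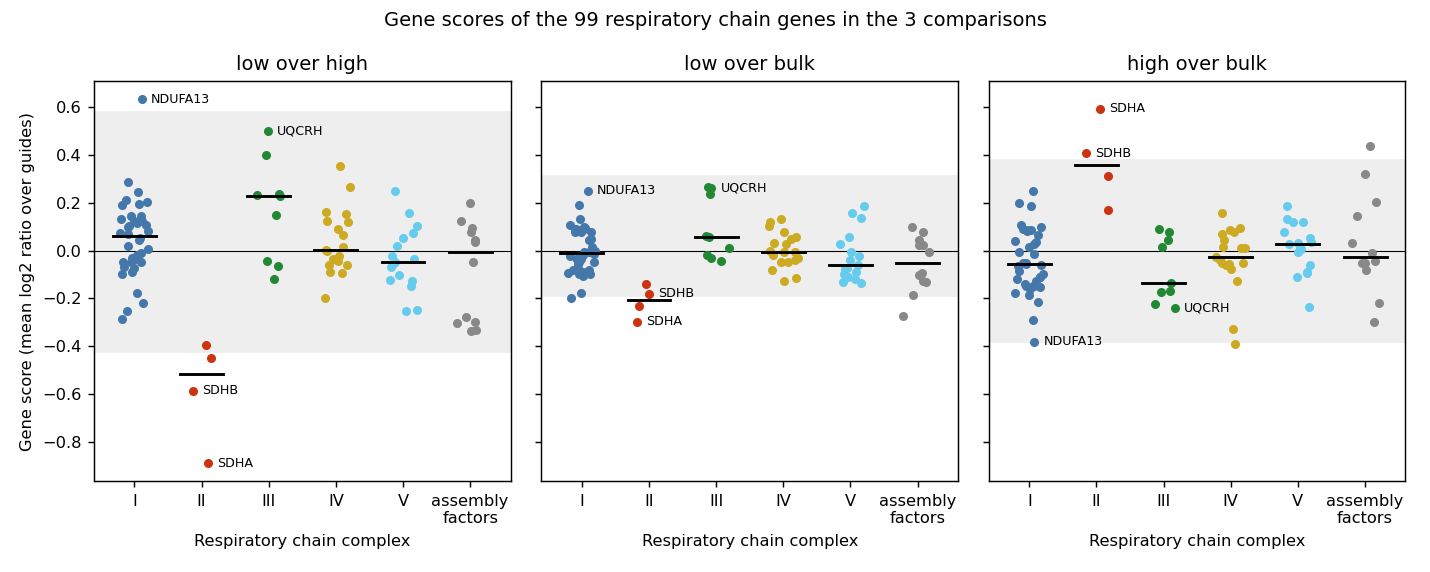
Gene scores (mean log2 ratio over guides, vertical axis) of the 99 respiratory chain genes by complex (horizontal axis) for low over high, low over bulk and high over bulk. Points are genes, black lines are medians and the grey band holds the central 95% of all 19113 genes. The 4 complex II genes lie below 0 in low over high, with a median of -0.52, and above 0 in high over bulk, with a median of 0.36.

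All 4 subunits of complex II were richer in the high than in the low bin. SDHA, the flavoprotein that oxidises succinate, scored -0.89 ± 0.26 (SD, 4 guides), and 0.649% of all scored genes were lower. SDHB, the iron-sulfur subunit, scored -0.59 ± 0.60. SDHC and SDHD, which anchor the enzyme in the membrane and hold its coenzyme Q site, scored -0.40 ± 0.56 and -0.45 ± 0.29. Of the 16 guides, 14 were below 0, beside 868 of 1486 guides of olfactory receptor genes, a comparison list. Over all genes 37993 of 75985 guides were below 0, a share fixed by setting the median over guides to 0.

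SDHA (chr5:218303-257082, plus strand) was the subunit whose guides lay closest together in proportion to its score. Guide 1 had 311 normalised counts in low, 441 in bulk and 724 in high, and guide 4 had 525, 622 and 1049 in the same order. Guide 2, the most abundant, had 2061, 2475 and 3487, and guide 3 had 407, 463 and 623. Every guide was thus higher in bulk than in low and higher again in high, and the ratios of low over high ran from -1.20 to -0.61. Against bulk, SDHA scored 0.59 ± 0.16 in high and -0.30 ± 0.14 in low.

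SDHB (chr1:17018664-17054032, minus strand) had 3 guides that were clearly richer in high and 1 that was not. Guides 2 to 4 went from 561, 315 and 707 normalised counts in low to 1065, 650 and 1141 in high. The remaining guide went the other way, from 884 in low and 950 in bulk to 719.9 in high, a ratio of 0.30. SDHB kept the size of 0.5 but missed the rule on signs because of that guide.

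SDHC (chr1:161314381-161363206, plus strand) showed the same split. Its guides 1 and 4 had 636 and 685 normalised counts in low and 1096 and 1184 in high, while guide 2 had 598 in low and 451 in high, a ratio of 0.40. Guide 3 lay between them at -0.42. For SDHD (chr11:112086824-112120016, plus strand) all 4 guides were below 0, at -0.08, -0.78, -0.49 and -0.45, but the mean was just short of 0.5 in size. The SDs of SDHB and SDHC were larger than the sizes of their scores, and their guides disagreed in sign.

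**Figure D2:**
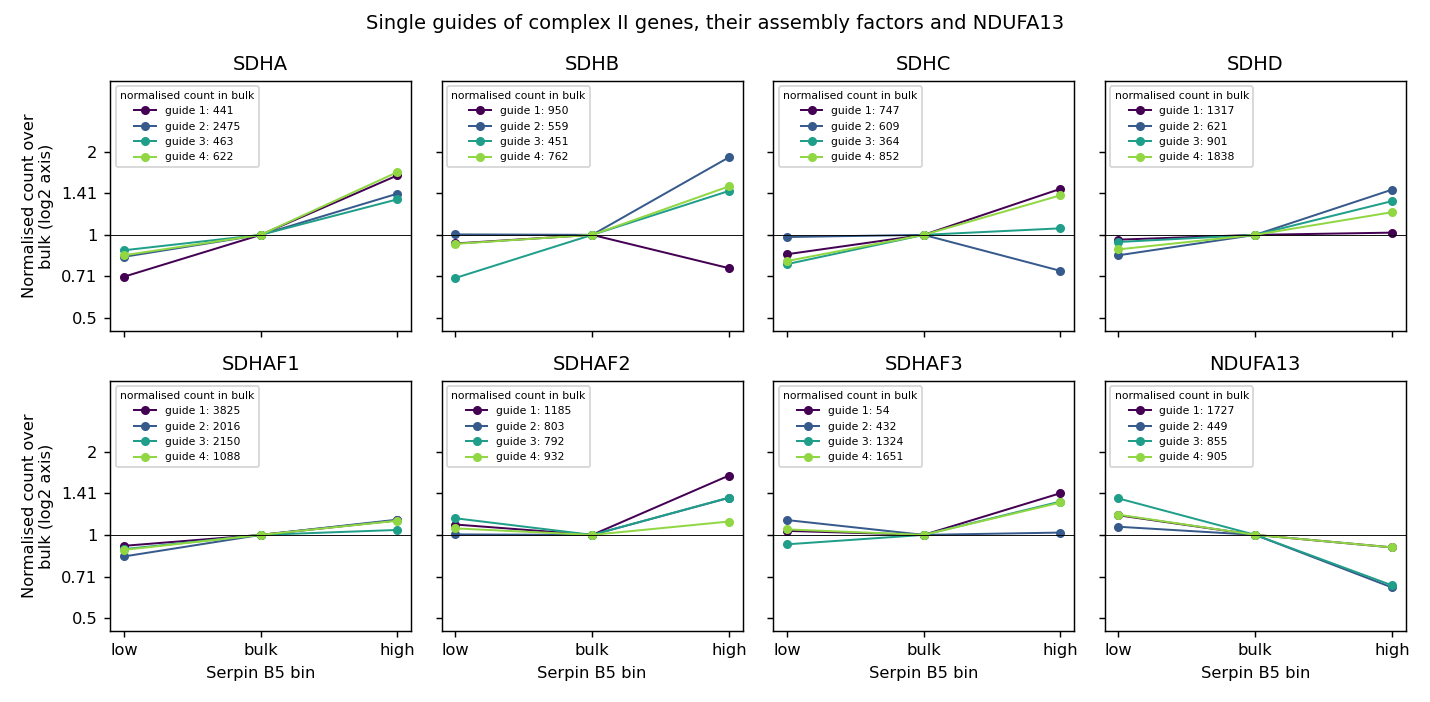
Normalised count of each guide in the low, bulk and high bins, divided by its count in bulk (vertical log2 axis), for the 4 complex II genes, their 3 assembly factors and NDUFA13. Each line is a guide and the legend gives its normalised count in bulk. All 4 guides of SDHA and 3 of 4 of SDHB end higher in high than in low, and all 4 of NDUFA13 end lower.

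Copies of these genes differ widely. In SDHA, 161 of 267 candidate sites (60.3%) matched outside the gene, counting sites across exon junctions that only a copy holds. Of its sites, 114 were found in SDHAP1 and 103 in SDHAP2 on chromosome 3, and 70 in SDHAP3 on chromosome 5. In SDHC the count was 57 of 70 (81.4%) and in SDHD 51 of 58 (87.9%), but in SDHB 1 of 85 (1.18%). A guide with several matches makes several cuts, and the part of this in the scores was not tested. The shares are of candidate sites and not of the library's guides, and SDHB, with the lowest share, scored -0.59 ± 0.60 on guides of both signs.

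The 3 assembly factors of complex II also lay on the side of high. SDHAF2 helps attach the flavin cofactor to SDHA, and SDHAF1 and SDHAF3 serve the iron-sulfur clusters of SDHB. SDHAF1 (chr19:35995188-35996312) scored -0.33 ± 0.09, the tightest of the 3, with guide ratios of -0.31, -0.44, -0.23 and -0.35 at 1088 to 3825 normalised counts in bulk. SDHAF2 (chr11:61430042-61446733) scored -0.34 ± 0.22 and SDHAF3 (chr7:97117698-97181763) -0.28 ± 0.29. None of the 3 reached 0.5 in size, and 11 of their 12 guides were below 0. None of their candidate sites matched elsewhere in the genome. With the 4 subunits, all 7 genes named SDH were below 0, with a median of -0.40 and 25 of 28 guides below 0. The other 92 respiratory chain genes had a median of 0.03, with 178 of 367 guides below 0.

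The factors differed in their scores against bulk. SDHAF1 scored -0.19 ± 0.05 in low over bulk and 0.15 ± 0.06 in high over bulk. SDHAF2 scored 0.10 ± 0.08 and 0.44 ± 0.22 in the same order, so both of its scores were above 0. SDHAF3 was like SDHAF2, at 0.04 ± 0.12 and 0.32 ± 0.20. Over the 4 subunits the medians were -0.20 in low over bulk and 0.36 in high over bulk. The band of all genes differed between these comparisons, at -0.19 to 0.31 in low over bulk and -0.38 to 0.38 in high over bulk. The complex II median was thus just below the band in low over bulk and inside it in high over bulk. By the study's methods the bins held unequal shares of the cells, most in bulk and fewest in high. The sizes of these scores and medians therefore do not show which bin moved more.

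Since complex II belongs to the tricarboxylic acid cycle as well, 13 other measured genes of the cycle were set beside it. Several of these encode subunits of the same enzyme. Their median of low over high was -0.17, with 9 of 13 below 0, beside 9503 of all 19113 genes. In a comparison list of 374 olfactory receptor genes, 241 were below 0. Of the 13, 3 were called richer in high, where 1.72% of all genes were. The list was chosen with earlier results of these data known, and OGDH and DLST encode parts of the same complex. The share is therefore a description only. OGDH scored -0.66 ± 0.40 and DLST -0.60 ± 0.24, and these encode the first and second components of the 2-oxoglutarate dehydrogenase complex, which makes succinyl-CoA. MDH2, the mitochondrial malate dehydrogenase, scored -0.60 ± 0.36. DLD, the component that the 2-oxoglutarate dehydrogenase complex shares with other dehydrogenases, scored -0.44 ± 0.09 with all 4 guides below 0. No enzyme of the cycle was called richer in low.

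The cycle was not uniform. Citrate synthase (CS) scored 0.03 ± 0.45 and IDH3A, the catalytic subunit of NAD-dependent isocitrate dehydrogenase, 0.16 ± 0.11. The other subunits of that enzyme lay on the other side of 0, with IDH3B at -0.17 ± 0.18 and IDH3G at -0.19 ± 0.42. Fumarase (FH), which takes the product of complex II, scored -0.10 ± 0.41. Of the succinyl-CoA ligase subunits, SUCLG1 scored -0.25 ± 0.33, SUCLA2 -0.03 ± 0.23 and SUCLG2 0.16 ± 0.39. The enzymes furthest below 0 were thus those of the 2-oxoglutarate dehydrogenase complex, complex II and malate dehydrogenase, with fumarase and the ligase nearer 0.

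**Figure D3:**
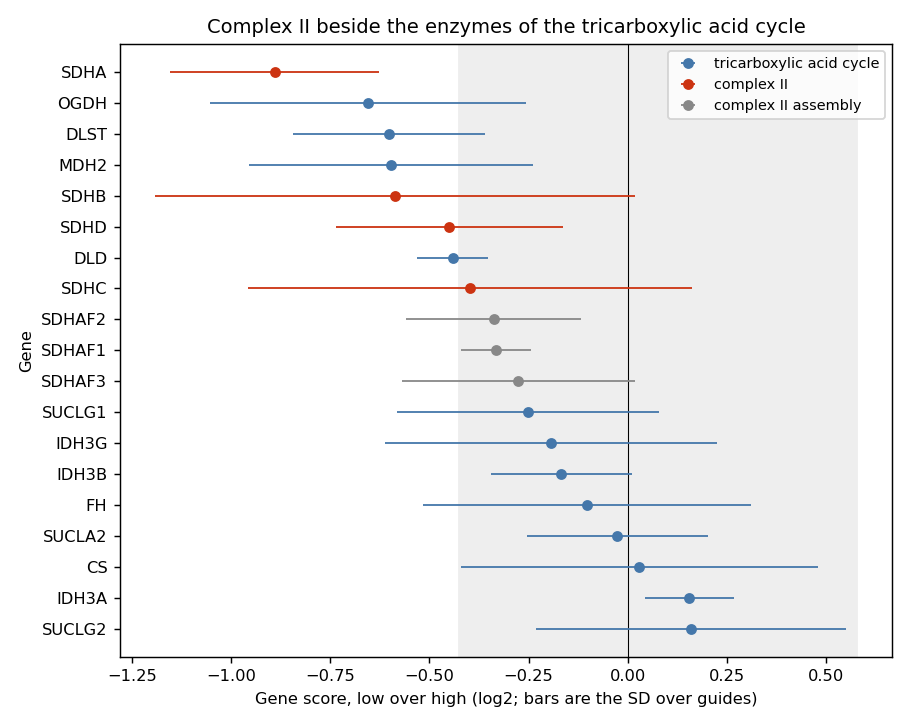
Score of low over high (horizontal axis, log2), ordered by score, with bars for the SD over guides. Shown are the 4 complex II genes, their 3 assembly factors and 12 other genes of the tricarboxylic acid cycle. The grey band holds the central 95% of all genes. SDHA, OGDH, DLST, MDH2, SDHB, SDHD and DLD lie below the band.

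Complex I held the largest number of genes and stayed close to 0. Its 38 genes had a median of 0.06 and an SD over genes of 0.17, against 0.28 over all genes, which hold scores up to 7.08. The central 50% was more alike, from -0.05 to 0.13 in complex I and from -0.10 to 0.11 over all genes. The peripheral arm, which oxidises NADH, and the membrane arm, which pumps protons, both had a median of 0.05. Of its core subunits, NDUFV1, which binds NADH, scored 0.10 ± 0.15 and NDUFS1, the largest subunit of the peripheral arm, 0.13 ± 0.56, with guides from -0.52 to 0.80.

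NDUFA13 (chr19:19515736-19529054, plus strand), an accessory subunit also known as GRIM-19, was the exception. It scored 0.63 ± 0.31 with guide ratios of 0.39, 0.72, 1.04 and 0.39, and 2.16% of all genes were higher. Guide 3 had 1158 normalised counts in low, 855 in bulk and 562 in high, and guide 2 had 481, 449 and 289.9. Guides 1 and 4 went from 2034 and 1071 in low to 1556 and 816 in high. All 4 guides were thus lower in high than in low, and against bulk the gene scored 0.25 ± 0.14 in low and -0.38 ± 0.27 in high. None of its 68 candidate sites matched elsewhere, and its annotated span overlaps that of YJEFN3. Without its strongest guide the score was 0.4988, just under the size for a call.

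The next highest scores in complex I were NDUFB8 at 0.29 ± 0.34 and NDUFAB1, the mitochondrial acyl carrier protein, at 0.24 ± 0.49. The lowest were NDUFB11 at -0.29 ± 0.18 and NDUFS4 at -0.25 ± 0.21. NDUFB11 and NDUFS4 had all 4 guides below 0, yet both lay inside the band of all genes.

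Complex III had a median of 0.23, but few of its genes carried it evenly, and it depended on how guides were combined. It was 0.08 with the median over guides, 0.10 with counts summed over guides and 0.05 without the strongest guide of each gene. UQCRH, the hinge protein near cytochrome c1, scored 0.50 ± 1.04 because of a single guide. That guide had 217 normalised counts in low, 109 in bulk and 48.1 in high, a ratio of 2.07, while the other 3 guides, at 1730.2 to 2898 in bulk, had ratios of -0.03, -0.03 and 0.01. UQCRHL, a closely related gene, scored 0.40 ± 0.29 with ratios of 0.79, 0.33, 0.08 and 0.41. The spliced coding sequences shared 26 candidate sites, and 26 of 30 sites of UQCRH matched elsewhere. In the genome, 19 sites of UQCRHL were found within UQCRH, so some of the shared sites are in UQCRHL and not in UQCRH. Which gene a guide of either cut cannot be told apart without its sequence. Leaving out both genes, the median of the other 7 was 0.15.

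Of the core subunits of complex III, the Rieske protein UQCRFS1 scored 0.23 ± 0.42, again with 1 guide at 0.80 and the others from -0.22 to 0.23, and 85.8% of its candidate sites matched elsewhere. UQCRC1 and UQCRC2, the core proteins, scored -0.05 ± 0.18 and -0.12 ± 0.06, and UQCRC2 had all 4 guides below 0. Among the small subunits, UQCR10 scored 0.24 ± 0.36, UQCRQ 0.23 ± 0.25, UQCRB 0.15 ± 0.14 and UQCR11 -0.06 ± 0.28. A list of 7 genes outside the symbol rule, CYC1 and factors for the assembly of complex III, had a median of 0.09. Of these, 6 were above 0 and 1 below, and none was called. CYC1, cytochrome c1, scored 0.22 ± 0.11 and the assembly factor UQCC2 0.30 ± 0.13, both with all 4 guides above 0. Others were less even, with BCS1L at 0.19 ± 0.61, UQCC3 at 0.01 ± 0.28 and UQCC1 at -0.06 ± 0.17.

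Complex IV was centred on 0. Over its 19 genes, 10 scores were above 0 and 9 below. COX4I1, COX5A and COX5B scored -0.00 ± 0.39, 0.00 ± 0.34 and 0.12 ± 0.26. The highest scores each rested on 1 guide of low count. NDUFA4L2 scored 0.36 ± 0.66, with 1 guide at 1.31 (272 normalised counts in low, 267 in bulk and 107 in high), and COX7C 0.27 ± 0.57, with 1 guide at 1.11 (204, 235 and 92.0). The lowest were COX7B2 at -0.20 ± 0.26 and COX6A1 at -0.10 ± 0.07.

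Several complex IV subunits have a form that is used in few tissues beside the ubiquitous form. The median was 0.05 over the 12 ubiquitous forms and -0.06 over the 7 restricted ones. Pair by pair, COX4I1 and the lung form COX4I2 scored -0.00 and -0.06, COX6A1 and the muscle form COX6A2 -0.10 and 0.07, and COX6B1 and the testis form COX6B2 0.16 and -0.06. COX7A2 and the muscle form COX7A1 scored 0.09 and -0.09, COX7B and COX7B2 -0.04 and -0.20, and COX8A and COX8C -0.04 and -0.02. Each difference within a pair was smaller than the larger SD over guides of that pair, except for COX6A1 and COX6A2, whose SDs were 0.07 and 0.15.

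Complex V, the ATP synthase, had a median of -0.05 and scores from -0.25 to 0.25. In the catalytic head, ATP5A1 scored 0.16 ± 0.21, ATP5B -0.03 ± 0.14 on 3 guides and ATP5C1, the central stalk, -0.05 ± 0.14. The highest score was ATP5L at 0.25 ± 0.14, with all 4 guides above 0, and its relative ATP5L2, with which it shared 10 candidate sites, scored 0.10 ± 0.71. The lowest were ATP5G3, a gene for subunit c of the rotor ring, at -0.25 ± 0.17 and the readthrough gene ATP5J2-PTCD1 at -0.25 ± 0.29. Of the 453 candidate sites of ATP5J2-PTCD1, 15 were shared with the subunit gene ATP5J2, which itself scored 0.05 ± 0.31. Most sites of the readthrough gene are thus not sites of that subunit. ATP5G1 and ATP5G2, the other genes for subunit c, scored 0.02 ± 0.47 and -0.05 ± 0.19.

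The assembly factors of complex I did not move together. Over the 8 in the symbol set the median was 0.06, from NDUFAF5 at 0.20 ± 0.32 and NDUFAF6 at 0.13 ± 0.11 to NDUFAF1 at -0.30 ± 0.19 and NDUFAF7 at -0.30 ± 0.06. NDUFAF7, a methyltransferase, had the closest guides, at -0.20, -0.33, -0.31 and -0.34. ATP5S, the factor B of complex V, scored 0.04 ± 0.19.

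Neighbouring pathways were described by fixed lists, chosen like the members with results of these data known. Medians of low over high were -0.13 over 9 genes of coenzyme Q synthesis, -0.08 over 8 other assembly factors of complex I, -0.02 over 22 of complex IV, 0.06 over 5 of complex V, 0.05 over cytochrome c (CYCS) and its lyase HCCS, and -0.04 over 8 genes of mitochondrial DNA and transcription. None of these genes was called. The 77 mitochondrial ribosomal proteins, needed to make the subunits encoded in mitochondrial DNA, had a median of -0.08, with 58 of 77 below 0. Over all genes, 9503 of 19113 were below 0. The 374 olfactory receptor genes, a comparison list, also leaned to high, with a median of -0.04 and 241 below 0. Medians of the mitochondrial ribosomal proteins against bulk were -0.08 in low and 0.01 in high, where those of complex II were -0.20 and 0.36. As given above, the band of all genes reached less far below 0 in low over bulk than in high over bulk.

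The abundance of guides is another reading of the same counts, which are PCR copies and not numbers of cells. In bulk the median normalised count per guide was 865 for complex I, 685 for complex II, 1193 for complex III, 1021 for complex IV, 868 for complex V and 942 for the assembly factors, beside 1051 over all genes and 2377 for non-targeting guides. No count of the plasmid pool was analysed here, so the makeup of the library and the loss of cells cannot be told apart. For complex II the median was 617 in low, 685 in bulk and 1057 in high, the widest step of the groups plotted. Guides of low count scatter more: the SD of guide ratios of low over high was 0.56 in the fifth of guides with the lowest bulk count and 0.23 in the highest, against 0.16 for non-targeting guides. The 16 guides of complex II lay at 364 to 2475 in bulk, and those of SDHA at 441 to 2475.

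**Figure D4:**
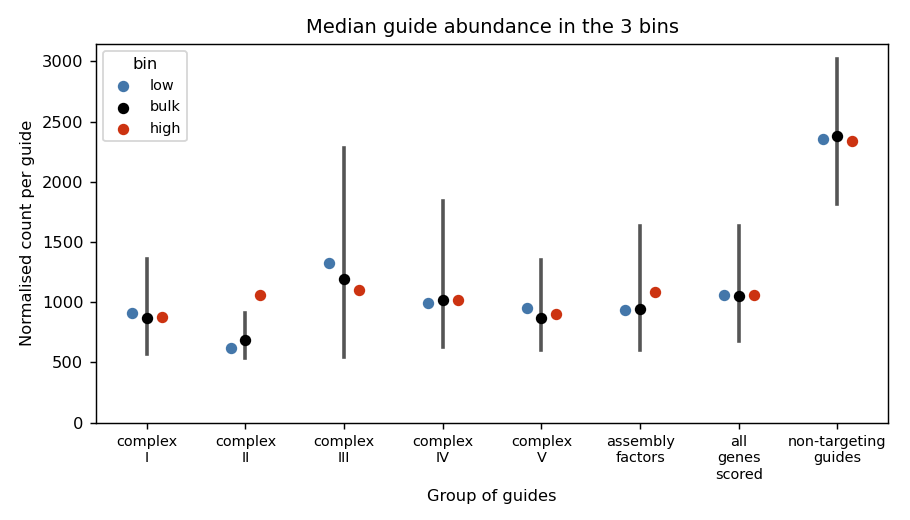
Median normalised count per guide (vertical axis) in the low, bulk and high bins for each complex, the assembly factors, all genes and non-targeting guides. Grey lines span the central 50% of guides in bulk. Complex II goes from 617 in low to 1057 in high.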

How the data were processed

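The authors deposited raw read counts per guide, with no normalisation, for a genome-wide screen with 1 library in each of the low, bulk and high bins. The 2 tables of a transcription factor library hold none of these genes and were not used. Guides had been amplified from genomic DNA by 1-step PCR, without molecular identifiers in the sources used here, so counts are PCR copies and counting error understates the true error. The submitters' processing notes name MAGeCK and hg38. The step that counted guides is not given in the sources used here.

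From the counts, median-ratio size factors were computed over 77441 guides in the 3 libraries. The 76980 guides with a mean normalised count of at least 30 were kept. Ratios were log2 of (count + 5) over (count + 5), with the median over guides that target genes set to 0, and a gene score was the mean over at least 2 guides. With 1 library a bin, no test was run. The scoring code was checked on simulated counts in which all guides of a gene changed alike. That check does not measure false calls where guides disagree, as some do here. The genes named are those called, the 2 highest and 2 lowest of each complex, a set of core subunits, tissue forms beside their partners, and called genes of other lists; others are given where a list is described, and 2 genes that the rule or a list names are not reported here singly. The members and lists were chosen with earlier results of these data known. Positions are from GENCODE on hg38, through current symbols for 19 renamed genes, and sites were matched by exact sequence. Python 3.11.15, numpy 2.4.6 and pandas 2.3.3 were used.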

Additional observations from a re-analysis of the deposited data

How the results depend on the processing

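Scaling, pseudocount, filter and the way guides are combined were varied in 9 ways. Each score was set against its own SD over guides, so a score with guides far apart could move far and still pass. UQCRH, with an SD of 1.04, ran from -0.02 to 0.52 in low over high and passed. Of 2673 scores recomputed, 2671 moved by less than the SD over guides and none of those called changed sign. The exception was ATP5B, at 0.40 in low over high and -0.54 in high over bulk with no filter on low counts, since its guide of 12, 15 and 0 counts was then included. The complex II median stayed below 0 in low over high under every one of these settings, from -0.70 to -0.39, and SDHA ranged from -0.90 to -0.78. The complex III median of high over bulk, -0.13, came to 0.0081 with the median over guides, 0.0144 with counts summed over guides and 0.0004 without the strongest guide, and that of low over high, 0.23, to 0.08, 0.10 and 0.05 in the same order. Counts of genes called rested on the rule. With a size of at least 1, 0 members were called in low over high in either direction and 0 richer in high against bulk, beside 1.03% (richer in low), 0.476% (richer in high) and 0.319% of all genes. With no rule on signs, 2 were called richer in low (NDUFA13 and UQCRH) and 2 richer in high (SDHA and SDHB), beside 3.03% and 1.86% of all genes. Without the strongest guide of each gene, 0 were called richer in low, beside 1.99%.

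No paired analysis was possible because each bin had 1 library, and leaving out a library was not possible either. Depth limits most the guides of low count, such as those behind the scores of UQCRH, NDUFA4L2 and COX7C. Guide sequences were not analysed here, so cuts in gene copies and cuts in the gene cannot be told apart.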
